A study of Mus musculus with 12 samples.

Results

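Heat shock proteins and their DnaJ cochaperones were followed in mouse hearts labelled HDAC3 KO and in mouse hearts with an HDAC3 described as inactive. The members were taken by symbol, as every gene whose name starts with Hspa, Hspb, Hspd, Hspe, Hsph, Hsp90 or Dnaj. This gave 74 of the 19405 genes listed in the data, 29 with an Hsp symbol and 45 with a Dnaj symbol. The symbols also took in Hspbp1 and Hspbap1, which are an exchange factor of HSP70 and a protein that binds HSPB1 and are not heat shock proteins.

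Total RNA of heart tissue was sequenced in 12 libraries, 3 in each of 4 groups. Hearts labelled HDAC3 KO were set against WT hearts of their own, and hearts of the NS-DADm genotype, described by the submitters as HDAC3 inactive, against other WT hearts of their own. HDAC3 is a histone deacetylase that gains its enzyme activity inside corepressor complexes, so the design asks which effects of losing the protein go beyond the loss of its activity. The labels give adult heart as the setting, and neither the alleles, the Cre driver, the strain, the age nor the sex of the animals. The replicates are labelled biological, but no label ties one to an animal or a pool, so the p-values below speak only of library-to-library spread, in part perhaps technical.

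Heat shock proteins are chaperones that bind unfolded or stressed proteins. HSP70 proteins hold and release their clients with ATP, J-domain proteins (Dnaj) bring the clients and start ATP hydrolysis, and exchange factors such as the HSP110 proteins let the client go. HSP90 takes over late folding steps, small heat shock proteins hold unfolded proteins without ATP and are abundant in muscle, and separate HSP70, HSP90 and chaperonin systems serve the endoplasmic reticulum and the mitochondria. The stress-inducible genes of the cytosol are driven by heat shock factors at heat shock elements, and those of the endoplasmic reticulum lumen by ATF6 and XBP1 at endoplasmic reticulum stress elements.

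Promoters of 6 members, of which 2 share a stretch, are shown because their start sites carry the elements that tell these stress programmes apart. The sequences are the bases before the start site in RefSeq, build GRCm38.p6, 5′ to 3′ on the strand of the gene, with matched elements in capitals. A heat shock element was searched as 2 facing pentamers, GAANNTTC or TTCNNGAA, and as 3 alternating ones, GAANNTTCNNGAA or TTCNNGAANNTTC. The endoplasmic reticulum stress element was searched as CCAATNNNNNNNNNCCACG on both strands. The stress-inducible HSP70 gene Hspa1b (chr17:34959239-34959488, minus strand) had 1 facing pair, which began at position −104 from the start. The small heat shock protein gene Hspb1 (chr5:135887669-135887918, plus strand) had pairs that began at −117 and −97. The mitochondrial chaperonin genes Hspe1 and Hspd1 are transcribed away from each other from the stretch chr1:55087933-55088147 (plus strand, 215 bases between both starts). In it 3 facing pairs overlap and hold both searched forms of the alternating triple. Hsph1 (chr5:149636337-149636586, minus strand), an HSP110 gene, had a pair at −33. Hspa5 (chr2:34771840-34772089, plus strand), which encodes BiP, the HSP70 of the endoplasmic reticulum, had the endoplasmic reticulum stress element at −65.
Hspa1b: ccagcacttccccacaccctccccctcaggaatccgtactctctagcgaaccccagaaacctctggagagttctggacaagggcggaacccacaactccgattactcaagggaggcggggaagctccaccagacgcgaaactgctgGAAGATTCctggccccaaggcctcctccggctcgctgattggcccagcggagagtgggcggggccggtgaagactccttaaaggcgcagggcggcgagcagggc
Hspb1: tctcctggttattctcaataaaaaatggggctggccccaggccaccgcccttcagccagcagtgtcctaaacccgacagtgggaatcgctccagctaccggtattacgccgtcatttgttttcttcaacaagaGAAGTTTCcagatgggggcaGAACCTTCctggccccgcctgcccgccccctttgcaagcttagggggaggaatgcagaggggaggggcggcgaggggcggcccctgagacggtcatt
Hspe1 and Hspd1: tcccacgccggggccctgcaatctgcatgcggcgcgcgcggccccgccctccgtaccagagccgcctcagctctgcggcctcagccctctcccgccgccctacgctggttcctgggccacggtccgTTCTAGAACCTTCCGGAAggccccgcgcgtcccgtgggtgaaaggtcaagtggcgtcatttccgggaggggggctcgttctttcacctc
Hsph1: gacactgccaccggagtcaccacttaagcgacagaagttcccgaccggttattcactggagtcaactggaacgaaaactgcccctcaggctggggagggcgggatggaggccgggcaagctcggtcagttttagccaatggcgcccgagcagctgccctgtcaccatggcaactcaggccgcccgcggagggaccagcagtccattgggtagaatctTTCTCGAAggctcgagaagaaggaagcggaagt
Hspa5: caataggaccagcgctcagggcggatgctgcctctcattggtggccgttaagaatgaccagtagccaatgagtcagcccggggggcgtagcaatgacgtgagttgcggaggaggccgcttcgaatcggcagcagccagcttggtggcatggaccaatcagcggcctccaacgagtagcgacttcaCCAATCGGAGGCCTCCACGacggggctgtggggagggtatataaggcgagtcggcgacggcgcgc

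Over the windows of 250 bases before to 50 after each start, 59 members had a promoter in the RefSeq table. Facing pairs were in 16 of these 59 (27.1%) and in 17.0% of 27025 genes. The alternating triple was in 4 members (Dnajb6, Hspd1, Hspe1 and Hsph1, 6.78%) and in 0.662% of genes. Hsph1 has 2 promoters in the RefSeq table, and its triple lies outside the stretch shown above, which holds a pair only. The endoplasmic reticulum stress element was in Dnajc3, Hsp90b1 and Hspa5 (5.08%) and in 0.137% of genes. Every triple also counts as a pair. A match describes the letters only and does not show that a factor binds there.

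Expression was deposited as FPKM, fragments scaled to transcript length and to library size, so levels of different genes can be compared per length. In KO libraries the targeted gene Hdac3 was at 8.51, 7.31 and 7.88 FPKM, against 27.83, 29.45 and 27.12 FPKM in their WT, and its NS-DADm and WT levels overlapped. Depth over the listed genes, estimated from the steps of low values, was 10000000 to 10650000 fragments in KO and 8650000 to 9100000 in its WT, and 12600000 to 12950000 in NS-DADm and 10200000 to 11400000 in its WT. The 3 KO libraries expressed the Y-linked genes Ddx3y (21.43 to 22.13 FPKM) and Eif2s3y (45.8 to 48.46 FPKM), which stood at 0 and 0.11 FPKM in every one of their WT libraries, so genotype and sex cannot be told apart in that experiment. In the NS-DADm experiment these genes were at 0.06 FPKM or less in all 6 libraries. There, NS-DADm replicates 1 and 3 and WT replicate 3 held high levels of atrial muscle genes (summed FPKM of 8 markers 4102.6 and 7031.6 in NS-DADm and 5060.2 in WT, against 800.1 in the remaining NS-DADm library and 450.9 and 710.9 in the remaining WT libraries). The 10 cardiomyocyte markers were abundant in all groups, summing to 45922.8 to 46567.7 FPKM in KO and 65704.3 to 69628.5 in its WT, and 57554.4 to 64654.2 in NS-DADm and 59241.0 to 66487.7 in its WT. By the limma test given below, 65.8% of all genes were called in KO hearts (38.2% higher and 27.6% lower). Markers of other cells also moved there. All 9 macrophage markers rose (summed FPKM 1828.4 to 1868.9 in KO, 304.7 to 332.3 in WT). Of 11 tested immediate early genes 10 rose (307.9 to 324.8 in KO, 129.3 to 133.2 in WT). Of 7 endothelial markers 6 fell (1630.5 to 1651.8 in KO, 2266.7 to 2496.2 in WT). Of 8 fibroblast markers 5 rose and 2 fell (2129.1 to 2133.2 in KO, 1461.4 to 1504.4 in WT), and all 5 erythroid markers fell (2693.2 to 2829.8 in KO, 7976.1 to 9302.2 in WT). Smooth muscle and pericyte markers summed to 379.1 to 385.5 in KO and 280.8 to 294.1 in WT, with 3 of 6 higher and 2 lower. The atrial list summed to 2425.0 to 2471.0 FPKM in KO and 294.3 to 303.6 in WT, and all 6 tested atrial markers rose. Bmp10, an atrial marker too low to test, was at 0.25, 0 and 0 FPKM in KO and at 0 in WT. The part of these cells and signs in the results below was not tested, and in whole tissue fewer cells of a type and less RNA per cell cannot be told apart.

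KO hearts carried more heat shock protein RNA in sum, but the members moved in opposite directions. Together the 74 members made up 1.51% of all FPKM in each KO library, against 1.18% to 1.21% in WT. By limma's moderated test on log2(FPKM + 1), with Benjamini-Hochberg adjustment over all 11810 genes tested, 29 members rose and 17 fell, and 19 were not called at an adjusted p of 0.05. Among the 29 are Hspa1b, Hspa1a and Hspbap1, which passed the filter on low values through the KO libraries. Of their WT libraries only replicate 2 of Hspa1a and replicate 1 of Hspbap1 reached 1 FPKM. These 46 called members are 70.8% of the 65 tested, where 65.8% of all genes were called (38.2% higher and 27.6% lower), so the share of members called lies near that of all genes. Every library of one group lay above every library of the other for 46 members (70.8%, 29 higher and 17 lower), and for 69.8% of all genes (40.2% higher and 29.6% lower). The median log2 fold change was 0.0674 over the members and 0.0596 over all genes. When each library was centred on its median gene, the split was 22 higher and 22 lower, and when FPKM were scaled to a common sum it was 30 higher and 12 lower. The remaining 9 members were too low to test. Dnajb13, Dnajb3, Dnajb7, Dnajc22, Dnajc5b, Dnajc5g, Dnajc6, Dnajc19-ps and Hspb9 were under 1 FPKM in every library of the experiment.

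**Figure D1:**
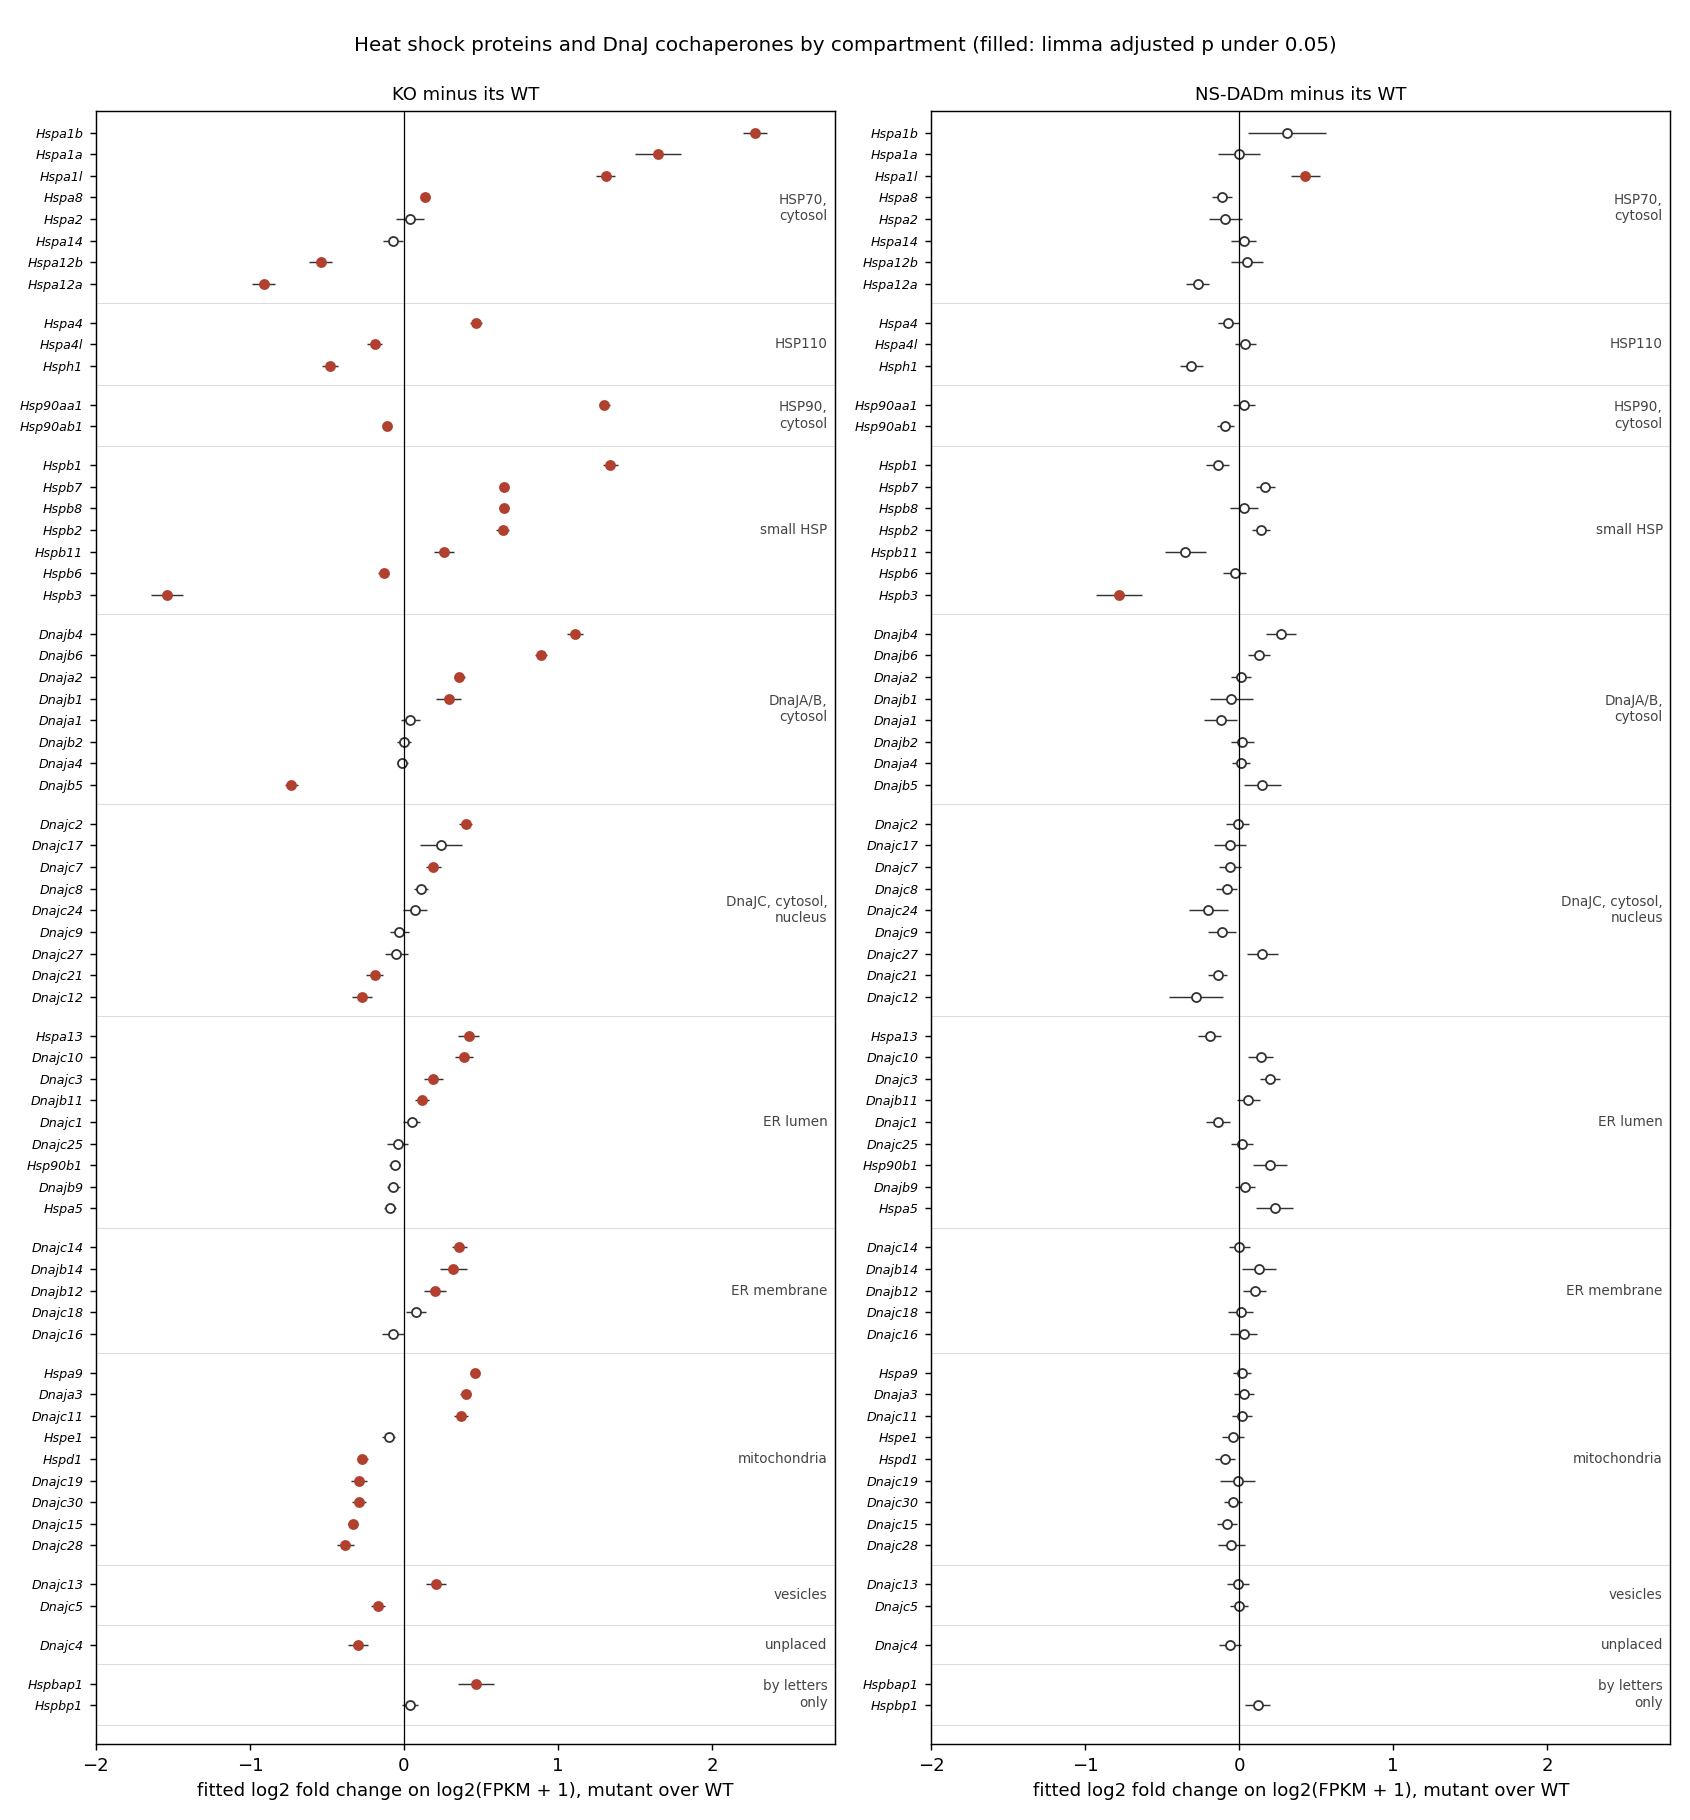
Fitted log2 fold changes (horizontal axis, on log2(FPKM + 1), with standard errors as bars) of every tested member, grouped by compartment, in KO against its WT (left) and NS-DADm against its WT (right); filled points have an adjusted p under 0.05. KO effects spread from −1.54 (Hspb3) to 2.28 (Hspa1b), and NS-DADm effects from −0.78 (Hspb3) to 0.43 (Hspa1l), the only filled points on the right. Hspbap1 has no point on the right because it was not tested there.

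Among HSP70 genes of the cytosol, the stress-inducible Hspa1a and its relative Hspa1l rose in KO hearts while the abundant constitutive one moved little. Of 8 tested, 4 rose, 2 fell and 2 were not called, where 38.2% of all genes rose and 27.6% fell. Hspa1b, an inducible HSP70, had 6.85, 6.59 and 7.05 FPKM in KO hearts, against 0.6, 0.71 and 0.52 FPKM in WT hearts. The groups were far apart, with a fitted log2 fold change of 2.28. As its WT libraries were all under 1 FPKM, it entered the test only through the KO libraries where it was high, so its values are a description and no p-value is given. Its near-identical neighbour Hspa1a had 5.07, 5.54 and 4.77 FPKM in KO hearts, against 0.96, 1.47 and 0.52 FPKM in WT hearts (log2 fold change 1.65 ± 0.149, SE). Only its WT replicate 2 reached 1 FPKM. Hspa1a too passed the filter through the KO libraries, so it is described without a p-value. Reads can be split between these copies, and Hspa1a overlaps exons of Gm20481 on the other strand, so their separate values are uncertain. Hspa1l, a relative of these genes best known from testis, had 11.09, 11.24 and 10.74 FPKM in KO hearts, against 3.95, 3.94 and 3.67 FPKM in WT hearts (log2 fold change 1.31 ± 0.0612, limma adjusted p = 1.54e-08). All 3 lie side by side within chr17:34956436-34979285, and Hspa1l overlaps the antisense gene Gm10501, which matters because the sources used here do not give whether counting used strand. The testis marker Ddx4 was at 0.21 FPKM or less in all 6 libraries.

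Hspa8, the constitutive HSP70 of the cytosol, was the highest member in WT hearts of this experiment. It had 1467.24, 1498.72 and 1483.57 FPKM in KO hearts, against 1370.61, 1340.96 and 1336.07 FPKM in WT hearts. The groups did not overlap, but the rise was small (log2 fold change 0.14 ± 0.0266, limma adjusted p = 0.000992) and was not called after median centring (adjusted p = 0.159). As a share of Hspa8, Hspa1b was at 0.467%, 0.44% and 0.475% in KO libraries and at 0.0438%, 0.0529% and 0.0389% in WT libraries, so it stayed a minor HSP70 transcript in both. The divergent HSP70 relatives fell. Hspa12a had 3.44, 3.37 and 3.33 FPKM in KO hearts, against 7.32, 7.82 and 6.55 FPKM in WT hearts (log2 fold change −0.91 ± 0.0741, limma adjusted p = 1.29e-06); it overlaps exons of Eno4 on the other strand. Hspa12b, an endothelial gene, had 10.44, 9.41 and 8.7 FPKM in KO hearts, against 14.8, 14.99 and 13.2 FPKM in WT hearts (log2 fold change −0.54 ± 0.0744, limma adjusted p = 7.61e-05). The endothelial marker sum given above was also lower in KO hearts, and its part in this fall was not tested. Hspa2 and Hspa14 were not called, and their groups overlapped.

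The HSP110 exchange factors moved in opposite directions. Hspa4, the highest of the 3, had 59.92, 60.95 and 61.03 FPKM in KO hearts, against 42.62, 43.1 and 45.14 FPKM in WT hearts (log2 fold change 0.47 ± 0.0387, limma adjusted p = 1.46e-06). Hsph1, the heat-inducible HSP110 whose promoter is shown above, had 14.08, 15.8 and 15.0 FPKM in KO hearts, against 21.63, 21.48 and 20.76 FPKM in WT hearts (log2 fold change −0.48 ± 0.0542, limma adjusted p = 1.66e-05). Relative to Hspa4 per length, Hsph1 was at 23.5%, 25.9% and 24.6% in KO libraries and at 50.8%, 49.8% and 46.0% in WT libraries. Hspa4l, the remaining gene of the class, was also lower in KO hearts (log2 fold change −0.19 ± 0.0498, limma adjusted p = 0.00678), a call lost when FPKM were scaled to a common sum (adjusted p = 0.0874). Hsph1 was thus lower in the same KO libraries in which Hspa1b and Hspa1a were higher. These HSP70 genes passed the filter through the KO libraries, so the contrast is a description only.

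The balance of the cytosolic HSP90 isoforms shifted towards the inducible one. Hsp90aa1, the inducible cytosolic HSP90, had 219.55, 211.66 and 220.96 FPKM in KO hearts, against 86.78, 91.4 and 85.8 FPKM in WT hearts (log2 fold change 1.3 ± 0.0367, limma adjusted p = 3.67e-10). Hsp90ab1, the constitutive isoform, had 718.25, 709.07 and 708.09 FPKM in KO hearts, against 767.64, 774.48 and 759.06 FPKM in WT hearts. Both pairs of groups were apart, and the fall of Hsp90ab1 was small (log2 fold change −0.11 ± 0.0271, limma adjusted p = 0.00492) and lost under scaling to a common sum (adjusted p = 0.5) and in a plain limma fit (adjusted p = 0.0584). Per length, Hsp90aa1 was at 30.6%, 29.9% and 31.2% of Hsp90ab1 in KO libraries, against 11.3%, 11.8% and 11.3% in WT libraries. This ratio is taken within a library and does not depend on how libraries are scaled. Hsp90aa1 lies at chr12:110690605-110702728 on the minus strand and overlaps no exon of another gene.

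**Figure D2:**
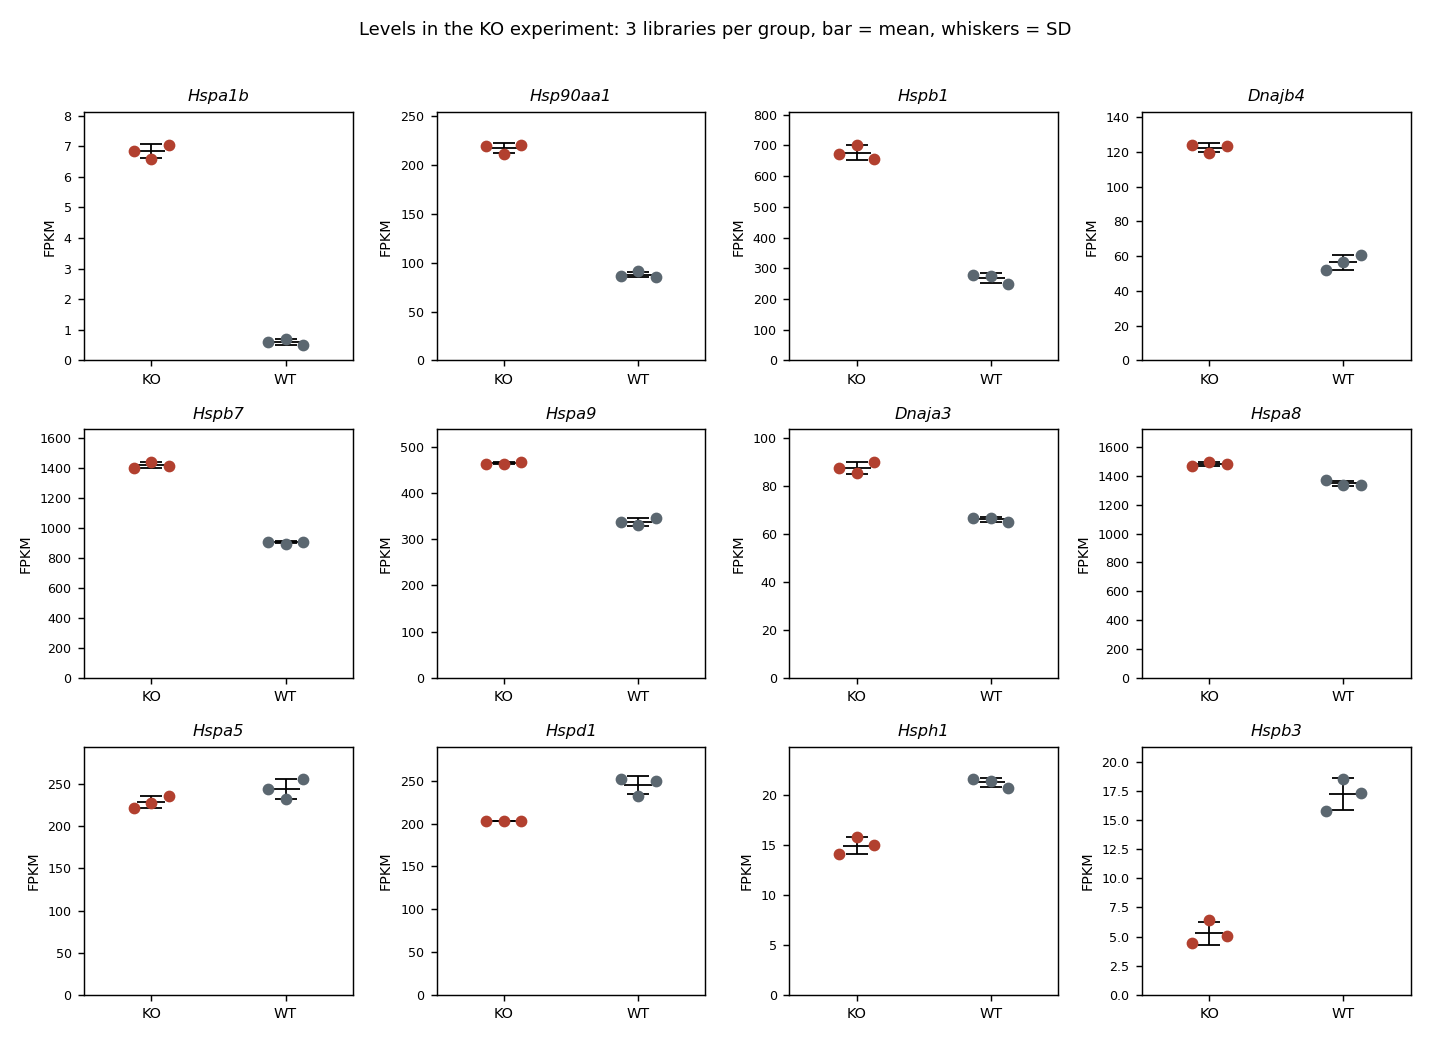
FPKM (vertical axes, each from 0) of 12 members in the 3 KO and 3 WT libraries of the KO experiment; points are libraries, and bars and whiskers give the mean and SD. Hspa1b, Hsp90aa1, Hspb1, Dnajb4, Hspb7, Hspa9, Dnaja3 and Hspa8 lie higher in all KO libraries, Hspd1, Hsph1 and Hspb3 lie lower in all of them, and Hspa5 overlaps.

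The small heat shock proteins were the compartment with the largest summed level, at 0.653% to 0.664% of all FPKM in KO hearts and 0.444% to 0.463% in WT hearts. In the other experiment, normalized separately, the sum was 0.605% to 0.641% in NS-DADm hearts and 0.568% to 0.608% in their WT. In KO hearts all 6 tested genes were called, 4 higher and 2 lower, with a median log2 fold change of 0.647. This count leaves out Hspb11, which has the symbol but is a protein of intraflagellar transport. Of all genes tested in the KO experiment 65.8% were called, 38.2% higher and 27.6% lower. Hspb1, which protects actin filaments, had 672.57, 702.37 and 654.19 FPKM in KO hearts, against 278.56, 274.8 and 248.29 FPKM in WT hearts. Its KO libraries lay far above its WT libraries (log2 fold change 1.34 ± 0.0465, limma adjusted p = 1.64e-09). Hspb7, a heart and muscle small heat shock protein needed for sarcomere assembly, had 1396.9, 1438.84 and 1414.21 FPKM in KO hearts, against 907.24, 893.81 and 904.42 FPKM in WT hearts (log2 fold change 0.65 ± 0.0269, limma adjusted p = 5.84e-09). Hspb8, the partner of BAG3 in chaperone-assisted autophagy, had 682.67, 685.37 and 682.9 FPKM in KO hearts, against 429.9, 427.6 and 446.73 FPKM in WT hearts (log2 fold change 0.65 ± 0.0296, limma adjusted p = 1.22e-08). These genes were higher in every KO library than in any WT library.

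Hspb2 had 110.87, 125.46 and 116.25 FPKM in KO hearts, against 75.28, 74.36 and 74.63 FPKM in WT hearts (log2 fold change 0.64 ± 0.0452, limma adjusted p = 3.84e-07). It lies at chr9:50751078-50752354 beside Cryab and overlaps its exons on the other strand, so without strand information the 2 cannot be fully separated. Hspb3 forms muscle complexes with HSPB2, and here it went the other way, with 4.48, 6.4 and 5.04 FPKM in KO hearts, against 15.81, 18.53 and 17.3 FPKM in WT hearts. It was the member with the largest fall (log2 fold change −1.54 ± 0.103, limma adjusted p = 2.68e-07). Hspb6, a cardiac small heat shock protein also called HSP20, had 1135.86, 1102.03 and 1081.6 FPKM in KO hearts, against 1174.33, 1185.01 and 1263.71 FPKM in WT hearts. That fall was slight (log2 fold change −0.13 ± 0.0353, limma adjusted p = 0.00914) and was lost under scaling to a common sum (adjusted p = 0.375) and in a plain limma fit (adjusted p = 0.0615), and the gene overlaps Lin37 and Proser3. Hspb7 was at 123%, 131% and 131% of Hspb6 in KO libraries, against 77.3%, 75.4% and 71.6% in WT libraries, and at 121%, 126% and 139% in NS-DADm libraries, against 104%, 113% and 119% in their WT. Hspb7 was thus the lower of both genes only in the WT libraries of the KO experiment. Hspb11 was modestly higher in KO hearts (log2 fold change 0.26 ± 0.0637, limma adjusted p = 0.00431).

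Of 8 tested cytosolic DnaJA and DnaJB genes, 4 rose and 1 fell in KO hearts, where 38.2% of all genes rose and 27.6% fell. Dnajb4, a heat-inducible J protein with a role in muscle, had 124.26, 119.55 and 123.54 FPKM in KO hearts, against 52.29, 56.6 and 60.51 FPKM in WT hearts (log2 fold change 1.11 ± 0.0505, limma adjusted p = 1.27e-08). Dnajb6, an inhibitor of protein aggregation mutated in a human limb-girdle muscular dystrophy, had 83.96, 81.39 and 80.23 FPKM in KO hearts, against 45.02, 42.92 and 43.35 FPKM in WT hearts (log2 fold change 0.89 ± 0.0383, limma adjusted p = 8.14e-09). Dnajb5 went the other way, at 23.83, 22.92 and 22.55 FPKM in KO hearts, against 39.46, 39.05 and 38.49 FPKM in WT hearts (log2 fold change −0.73 ± 0.0424, limma adjusted p = 8.36e-08). Dnajb5 belongs to the same type of J protein as Dnajb4 and Dnajb1 and is known from the heart for a redox-sensitive complex that controls the nuclear export of HDAC4. Dnajb1, the classical HSP40, had 9.32, 7.66 and 8.73 FPKM in KO hearts, against 6.48, 7.51 and 6.54 FPKM in WT hearts. Its lowest KO library was just above the highest WT library (log2 fold change 0.29 ± 0.0818, limma adjusted p = 0.0102), and median centring ended the call (adjusted p = 0.0535). Dnaja1, a general partner of HSP70, had 21.2, 24.59 and 23.24 FPKM in KO hearts, against 22.74, 21.01 and 23.08 FPKM in WT hearts, and was not called (limma adjusted p = 0.558). Dnaja2 rose modestly (log2 fold change 0.36 ± 0.035, limma adjusted p = 5.57e-06), and the groups of Dnaja4 and Dnajb2 overlapped.

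Among 9 tested DnaJC genes of the cytosol, nucleus and ribosome, 2 rose and 2 fell in KO hearts. Of all genes 38.2% rose and 27.6% fell. Dnajc2, the J protein of the ribosome-associated complex, rose (log2 fold change 0.4 ± 0.0443, limma adjusted p = 1.36e-05), as did Dnajc7, which binds both HSP70 and HSP90 (0.19 ± 0.0496, limma adjusted p = 0.00673), a call lost after median centring (adjusted p = 0.1). Dnajc12, a cochaperone of aromatic amino acid hydroxylases, fell (−0.27 ± 0.0648, limma adjusted p = 0.00345), and so did the ribosome biogenesis factor Dnajc21 (−0.19 ± 0.0531, limma adjusted p = 0.00902), a call lost under scaling to a common sum (adjusted p = 0.103). In the small endosome and vesicle class Dnajc13 rose and Dnajc5, the cysteine string protein of synaptic vesicles, fell, with log2 fold changes of 0.21 and −0.17. Median centring ended the call of Dnajc13 (adjusted p = 0.117), as did leaving out KO replicate 2 (0.0714), and scaling to a common sum ended that of Dnajc5 (0.15). Dnajc4, placed in no compartment here, fell (log2 fold change −0.3 ± 0.0661, limma adjusted p = 0.00215), with 42.41, 47.56 and 46.57 FPKM in KO hearts, against 59.32, 59.26 and 50.65 FPKM in WT hearts.

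The main chaperones of the endoplasmic reticulum lumen were not called by limma in KO hearts. The authors' deposited comparison placed Hspa5 (q = 5.14e-05) and Hsp90b1 (q = 0.0015) lower. Hspa5, the gene of BiP, had 222.07, 227.67 and 235.98 FPKM in KO hearts, against 244.44, 232.03 and 256.17 FPKM in WT hearts (log2 fold change −0.09 ± 0.0416, limma adjusted p = 0.0678). Hsp90b1, the HSP90 of this compartment, had 170.25, 171.6 and 178.08 FPKM in KO hearts, against 184.85, 174.1 and 181.42 FPKM in WT hearts (limma adjusted p = 0.195). Dnajb9, a J protein that BiP uses to restrain the stress sensor IRE1, had 40.34, 38.93 and 38.7 FPKM in KO hearts, against 39.64, 42.44 and 42.03 FPKM in WT hearts (limma adjusted p = 0.168). The groups overlapped for all 3 genes, and median centring placed all 3 lower in KO hearts (adjusted p = 0.00274, 0.00615 and 0.00618 in the order given). Hspa5 was also called lower without WT replicate 2 (adjusted p = 0.0159). Another 4 of the 9 tested genes of this compartment rose, where 38.2% of all genes rose.
Hspa13, a microsomal HSP70 relative, rose with a log2 fold change of 0.42 ± 0.0695 (limma adjusted p = 0.0003), and the disulfide reductase Dnajc10 with 0.39 ± 0.0605 (0.000199). Dnajc3, an inhibitor of the kinase PERK that also works as a BiP cochaperone, had 16.3, 15.99 and 16.09 FPKM in KO hearts, against 13.17, 13.66 and 15.41 FPKM in WT hearts (log2 fold change 0.19 ± 0.062, limma adjusted p = 0.0215). The calls of Dnajc3 and of Dnajb11 (log2 fold change 0.12, adjusted p = 0.0344) were each lost after median centring (0.156 and 0.478) and without single libraries of either group, with adjusted p of 0.0515 to 0.0794 for Dnajc3 (without KO replicate 1 or 3 or WT replicate 1 or 2) and 0.0918 to 0.124 for Dnajb11 (without KO replicate 1 or 3 or WT replicate 1). Thus the members with the endoplasmic reticulum stress element shown above, Hspa5, Hsp90b1 and Dnajc3, did not rise together. Of 5 tested J proteins in the membrane of this organelle, Dnajc14 (log2 fold change 0.36), Dnajb14 (0.32) and Dnajb12 (0.2) rose. The call of Dnajb12 was lost after median centring (adjusted p = 0.201), without a filter on low values (0.0565), and without KO replicate 1 or 3 or WT replicate 3 (0.084 to 0.118).

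Within mitochondria Hspa9, the HSP70, rose and Hspd1, the large chaperonin subunit, fell. Of 9 tested genes, 3 rose and 5 fell, with a median log2 fold change of −0.269. Of all genes 38.2% rose and 27.6% fell, with a median of 0.0596. Hspa9, the mitochondrial HSP70 that pulls proteins through the import channel, had 463.31, 464.37 and 468.1 FPKM in KO hearts, against 337.09, 330.14 and 345.74 FPKM in WT hearts (log2 fold change 0.46 ± 0.0301, limma adjusted p = 2.14e-07). Its J protein Dnaja3 had 87.66, 85.37 and 90.22 FPKM in KO hearts, against 66.81, 66.83 and 65.07 FPKM in WT hearts (log2 fold change 0.4 ± 0.0364, limma adjusted p = 3.13e-06); it overlaps exons of Coro7 and Vasn. The groups of both genes were apart. Dnajc11, a J protein associated with the MICOS complex of the cristae, rose by a similar size (log2 fold change 0.37 ± 0.0456, limma adjusted p = 3.15e-05).

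Hspd1, the mitochondrial chaperonin HSP60, had 202.81, 203.01 and 202.64 FPKM in KO hearts, against 252.14, 232.79 and 249.47 FPKM in WT hearts (log2 fold change −0.27 ± 0.0365, limma adjusted p = 7.2e-05). Hspe1, its lid HSP10, had 147.67, 146.53 and 156.97 FPKM in KO hearts, against 163.68, 165.7 and 153.99 FPKM in WT hearts. These groups overlapped and the gene just missed the threshold (log2 fold change −0.1 ± 0.041, limma adjusted p = 0.0543), which it passed after median centring (0.00361) and without KO or WT replicate 3 (0.0289 and 0.016). The genes share the promoter stretch printed above and overlap on opposite strands, so reads near their starts are uncertain. Hspa9 was at 228%, 229% and 231% of Hspd1 in KO libraries and at 134%, 142% and 139% in WT libraries. The J proteins Dnajc19 and Dnajc15 sit at the same import motor as Hspa9, and both fell. Dnajc19, whose human mutations cause a dilated cardiomyopathy with ataxia, had 72.92, 64.69 and 65.35 FPKM in KO hearts, against 79.57, 86.82 and 81.83 FPKM in WT hearts (log2 fold change −0.29 ± 0.0525, limma adjusted p = 0.000632), and overlaps Fxr1 on the other strand. Dnajc15 had 152.42, 160.74 and 157.37 FPKM in KO hearts, against 198.57, 198.13 and 193.88 FPKM in WT hearts (log2 fold change −0.33 ± 0.0332, limma adjusted p = 7.63e-06). Each KO library lay below each WT library for both genes. Dnajc28 had 13.4, 12.94 and 12.53 FPKM in KO hearts, against 16.79, 16.37 and 18.19 FPKM in WT hearts (log2 fold change −0.38 ± 0.0568, limma adjusted p = 0.000164), and Dnajc30, a partner of the ATP synthase and complex I, fell too (log2 fold change −0.29, limma adjusted p = 0.000195) but overlaps Bud23. The cardiomyocyte marker sum given above was also lower in KO hearts, and its part in the falls was not tested.

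The authors' deposited table gave a q-value under 0.05 to 40 of 72 members in the KO comparison, where 42.0% of all 16809 genes with a q had one. Of these 40 members, 36 were among the 46 called by limma here, so the overlap is 36 of 40 and 36 of 46. The 10 called by limma only were Hspa8, Hspb11, Dnajb1, Dnajb11, Dnajb12, Dnajb14, Dnajc3, Dnajc7, Dnajc12 and Dnajc13. Their deposited q ran from 0.0511 (Hspa8) to 0.684 (Dnajb11). The remaining 4 of the 40 were Dnajb3, Hsp90b1, Hspa5 and Hspe1. The deposited fold was positive for Dnajb3 and negative for Hsp90b1, Hspa5 and Hspe1.

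In NS-DADm hearts 2 members were called. Hspb3 fell and Hspa1l rose among 64 members tested, which is 3.12%, against 2.69% of all 11705 genes. Without adjustment 11 of the 64 members had a p under 0.05, as had 18.4% of all genes. The median log2 fold change was 0.00191 over members and −0.0233 over all genes. Groups did not overlap for 15 of the 64 members (23.4%), 6 higher and 9 lower, where 24.2% of all genes had groups apart (9.18% higher and 15.0% lower). The authors' deposited table gave 0 of 72 members a q under 0.05, with 2.71% of all genes below it, and its lowest member q was 0.0649, for Hspb3. All members together made up 1.39%, 1.45% and 1.39% of FPKM in NS-DADm libraries and 1.37%, 1.4% and 1.37% in WT libraries.

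Hspb3 had 6.79, 6.63 and 4.35 FPKM in NS-DADm hearts, against 11.45, 11.42 and 9.49 FPKM in WT hearts (log2 fold change −0.78 ± 0.148, limma adjusted p = 0.0326). The groups were apart. Replicate 3, high in atrial genes, was the lowest library in each group, but the atrial-rich NS-DADm replicate 1 was the highest of its group. The call was lost without a filter on low values (adjusted p = 0.0761), in a plain limma fit (0.0548), and without WT replicate 1 or 2 (0.119 and 0.132). With all 3 atrial-rich libraries left out, an alternative chosen after seeing the data, it passed the threshold, but with 1 NS-DADm library left that was assumed to vary like the WT ones. Hspa1l had 7.35, 6.67 and 7.25 FPKM in NS-DADm hearts, against 4.47, 5.58 and 4.98 FPKM in WT hearts (log2 fold change 0.43 ± 0.0916, limma adjusted p = 0.0422). These groups were apart too, but the call was lost on leaving out any of the 6 libraries (adjusted p 0.0693 to 0.13), without a filter (0.0874), in a plain limma fit (0.0582), with the atrial level as a covariate (0.0869) and without the atrial-rich libraries (0.322).

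The inducible genes of the cytosol that rose in KO hearts were not called here. Hspa1l, called above, is a relative of the inducible HSP70 genes best known from testis. Hspa1b had 1.9, 1.88 and 0.98 FPKM in NS-DADm hearts, against 1.29, 0.41 and 1.68 FPKM in WT hearts, with overlapping groups (limma adjusted p = 0.559). Hspa1a had 2.21, 1.9 and 1.7 FPKM in NS-DADm hearts, against 1.94, 1.49 and 2.4 FPKM in WT hearts (limma adjusted p = 0.99). Hsp90aa1 had 74.26, 66.36 and 71.55 FPKM in NS-DADm hearts, against 67.49, 65.47 and 75.08 FPKM in WT hearts (limma adjusted p = 0.869). Its share of Hsp90ab1 was 11.6%, 10.5% and 11.8% in NS-DADm libraries and 10.4%, 9.53% and 11.2% in WT libraries. Hspb1 had 239.25, 238.0 and 243.83 FPKM in NS-DADm hearts, against 295.7, 246.87 and 255.85 FPKM in WT hearts, so its groups were apart in the direction opposite to KO without passing the test (log2 fold change −0.14 ± 0.0733, limma adjusted p = 0.34). Hsph1 had 13.81, 12.12 and 12.63 FPKM in NS-DADm hearts, against 16.83, 16.36 and 15.19 FPKM in WT hearts, also apart and not called (log2 fold change −0.31 ± 0.0746, limma adjusted p = 0.0668).

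Other members whose groups were apart in NS-DADm hearts missed the threshold as well. Hspb7 had 1428.04, 1478.95 and 1580.96 FPKM in NS-DADm hearts, against 1335.23, 1384.39 and 1279.9 FPKM in WT hearts (log2 fold change 0.17 ± 0.0635, limma adjusted p = 0.203). Dnajb4 had 76.67, 93.58 and 72.81 FPKM in NS-DADm hearts, against 62.44, 65.53 and 71.55 FPKM in WT hearts (log2 fold change 0.27 ± 0.0962, limma adjusted p = 0.171). With the 3 atrial-rich libraries left out, Dnajb4 was called higher (log2 fold change 0.54, adjusted p = 0.0324), again with 1 NS-DADm library left. In the endoplasmic reticulum, Hspa5 had 290.31, 293.09 and 223.48 FPKM in NS-DADm hearts, against 246.37, 237.98 and 199.2 FPKM in WT hearts, and Hsp90b1 had 221.56, 223.81 and 175.38 FPKM in NS-DADm hearts, against 175.73, 200.36 and 162.95 FPKM in WT hearts. For both genes replicate 3 was the lowest library of its group, and the groups overlapped (limma adjusted p = 0.351 and 0.373). Of the 9 mitochondrial members none was called by limma (0 at an unadjusted p under 0.05, adjusted p 0.492 to 0.984).

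**Figure D3:**
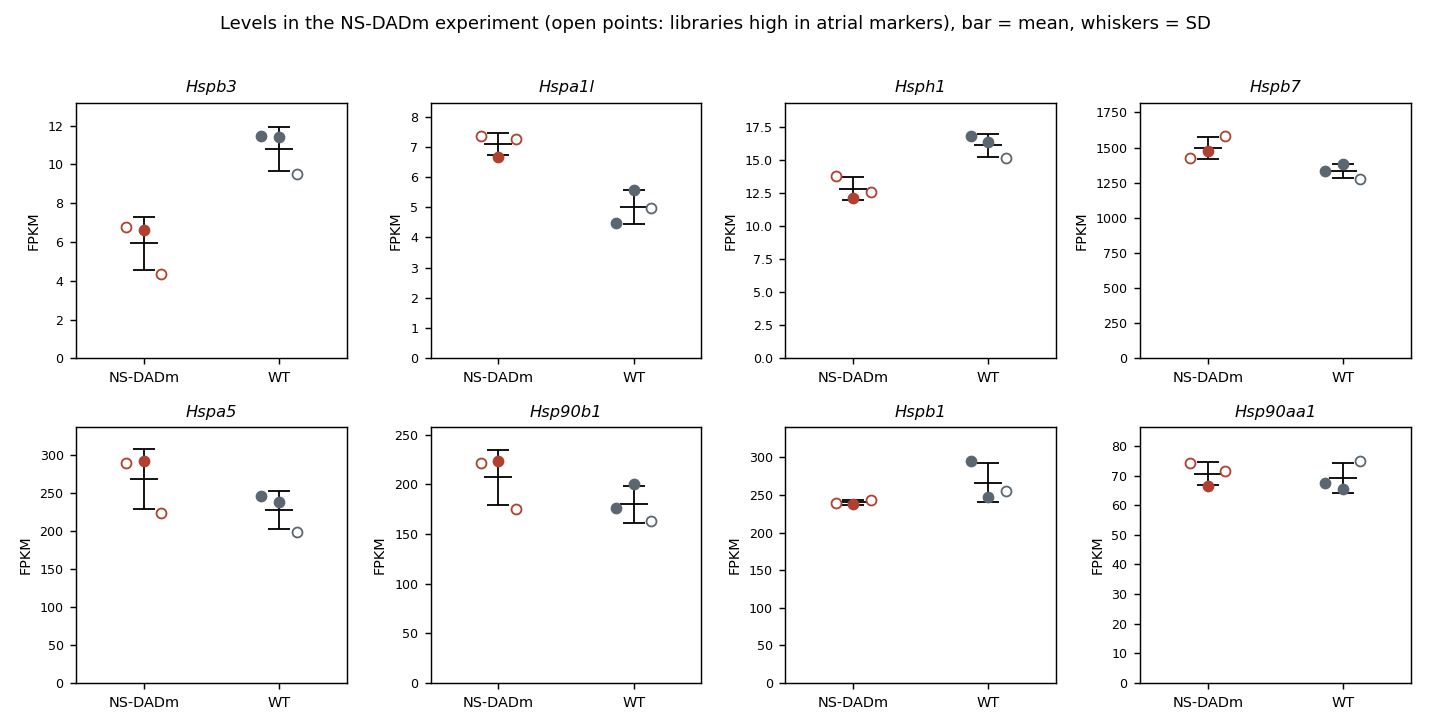
FPKM (vertical axes, each from 0) of 8 members in the 3 NS-DADm and 3 WT libraries of the NS-DADm experiment; open points are the libraries high in atrial markers, and bars and whiskers give the mean and SD. Hspb3, Hsph1 and Hspb1 lie lower and Hspa1l and Hspb7 higher in all NS-DADm libraries, of which only Hspb3 and Hspa1l passed the test, while Hspa5, Hsp90b1 and Hsp90aa1 overlap.

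KO and NS-DADm effects were set against each other in 1 fit over all 12 libraries, each effect taken within its own table. The KO effect was higher than the NS-DADm effect for 22 members and lower for 8, which is 46.2% of 65 tested, against 45.9% of all 11662 genes (28.2% higher and 17.7% lower). After median centring the counts were 20 higher and 16 lower, and under scaling to a common sum 25 and 5. Centring moved the median difference of all genes to −0.0249, against 0.0785 as deposited. The largest differences, KO effect minus NS-DADm effect on the log2 scale, were 1.97 for Hspa1b and 1.65 ± 0.219 (SE) for Hspa1a. Both are given with no p because their KO effects were tested through the KO libraries where they were high. Next were 1.48 ± 0.0908 for Hspb1 (limma adjusted p = 2.17e-08) and 1.27 ± 0.081 for Hsp90aa1 (3.22e-08). Hspa1l, the only member called higher in both comparisons, rose more in KO (difference 0.88 ± 0.106, limma adjusted p = 1.3e-05), and Hspb3, the only one called lower in both, fell more in KO (−0.76 ± 0.2, limma adjusted p = 0.00724).

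By role, 5 of 6 tested small heat shock proteins (Hspb11 left out) were called in the test of the difference, 4 with the higher effect in KO. Of all genes 28.2% had the higher effect in KO and 17.7% the lower one. Of the 8 cytosolic HSP70 genes, 4 had the higher effect in KO and 2, Hspa12a and Hspa12b, the lower one. The 4 include Hspa1b and Hspa1a, which are given without a p above. Dnajb4 (0.83 ± 0.117, limma adjusted p = 5.66e-05) and Dnajb6 (0.76 ± 0.0809, 4.33e-06) had higher effects in KO, and Dnajb5 a lower one (−0.88 ± 0.134, 0.000118). In mitochondria the effects on Hspa9 (0.44 ± 0.0611, limma adjusted p = 4.24e-05) and Dnaja3 (0.37 ± 0.0728, 0.000825) were higher in KO. Those on Dnajc15 (−0.25), Dnajc28 (−0.32) and Dnajc30 (−0.25) were lower, while that on Hspd1 was not called (−0.18 ± 0.0733, 0.0619). Leaving out single libraries moved 2 of these across the threshold. Dnajc28 lost its call without replicate 3 of KO, of WT in the KO experiment or of WT in the NS-DADm experiment, without NS-DADm replicate 2 or 3, and without WT replicate 1 of that experiment (adjusted p 0.051 to 0.063). Hspd1 gained one without NS-DADm replicate 3 (0.0427), WT replicate 2 of that experiment (0.0396) or WT replicate 2 of the KO experiment (0.0376). Scaling to a common sum ended the calls of Dnajc28 (0.0799) and Dnajc30 (0.064), and Hspd1 was called after median centring (0.0147), without the atrial-rich libraries (0.0162) and with the atrial covariate (0.00591). Of the 9 genes of the endoplasmic reticulum lumen Hspa13 was called (0.62 ± 0.096, limma adjusted p = 0.000127). For Hspa5 the difference was −0.33 ± 0.138 (limma adjusted p = 0.0677), and it was called without NS-DADm replicate 3 (0.00309), without WT replicate 1 of that experiment (0.0461), without the 3 atrial-rich libraries (0.00224), with the atrial level as a covariate (0.00392) and after median centring (0.0282). For Hsp90b1 it was −0.25 (adjusted p = 0.11), and it was called without NS-DADm replicate 3 (0.0065), without WT replicate 2 of that experiment (0.0334), without the atrial-rich libraries (0.0137), with the covariate (0.00808) and after median centring (0.0446). Dnajc10 was called without NS-DADm replicate 3 (0.00993), without WT replicate 3 of the KO experiment (0.032) and after scaling to a common sum (0.0375), against an adjusted p of 0.0628 with all libraries. The difference for Hsph1 was −0.18 ± 0.09 and was not called (limma adjusted p = 0.126, and 0.0231 after median centring), with log2 fold changes of −0.48 in KO and −0.31 in NS-DADm, of which the KO one was called.

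**Figure D4:**
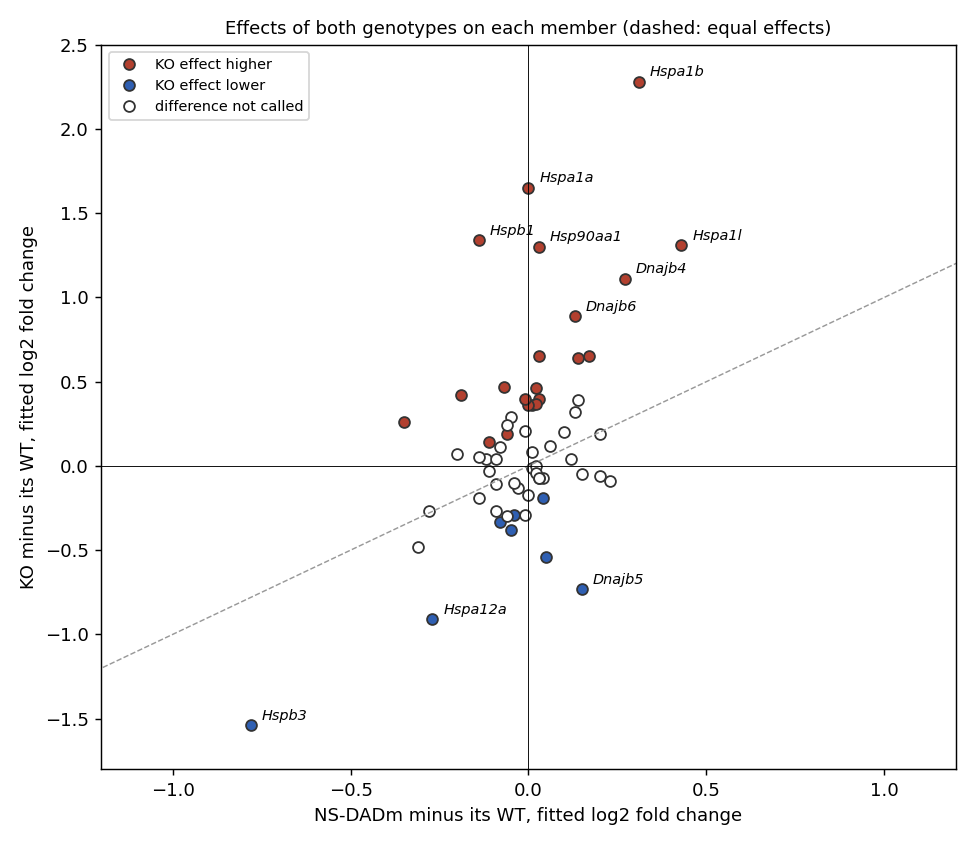
Fitted log2 fold change in KO hearts (vertical axis) against that in NS-DADm hearts (horizontal axis), each over its own WT, for the 64 members tested in both; point colours give the call of the test of the difference, and the dashed line marks equal effects. Hspa1b, Hspa1a, Hspb1, Hsp90aa1, Hspa1l, Dnajb4 and Dnajb6 lie above the line and Hspb3, Hspa12a and Dnajb5 below it.

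Genes that work with the members were counted by pathway list. In KO hearts 71.6% of the 81 tested genes of these lists that are no members were called. Over all genes the share was 65.8% (38.2% higher and 27.6% lower). The heat shock factors showed little change in KO hearts: of 4 tested genes 1 rose, Hsf2 (8.76 ± 0.614 FPKM in KO and 7.32 ± 0.71 in WT hearts, SD, n = 3 each, limma adjusted p = 0.0222). Hsf1, the main activator of the heat shock response, had 18.8, 19.53 and 17.42 FPKM in KO hearts, against 20.06, 18.83 and 20.99 FPKM in WT hearts, and was not called (limma adjusted p = 0.168). Of 13 exchange factors and cochaperones of HSP70, 5 rose and 3 fell. The mitochondrial exchange factor Grpel1, which serves Hspa9, rose with a log2 fold change of 0.51, and Bag3, the partner of Hspb8, with 0.26 (limma adjusted p = 1.1e-06 and 3.58e-05), while Bag1 fell (−0.52, 1.1e-07). Among 16 cochaperones of HSP90, 4 rose and 8 fell. Fkbp4, an immunophilin that carries steroid receptors on HSP90, had 51.68, 50.23 and 52.01 FPKM in KO hearts, against 198.71, 203.58 and 195.16 FPKM in WT hearts (log2 fold change −1.94 ± 0.0344, limma adjusted p = 1.51e-11), a fall larger than that of any member. Unc45b, the myosin chaperone of striated muscle, fell too (−0.7, adjusted p = 4.66e-08).

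Cryab, the alpha-crystallin B chain and a small heat shock protein by structure, had 2949.44, 3108.49 and 2923.97 FPKM in KO hearts, against 2319.74, 2298.33 and 2298.19 FPKM in WT hearts (log2 fold change 0.38 ± 0.0297, limma adjusted p = 9.71e-07), above the level of every member. In its list of 7 tested chaperones with other symbols 2 rose and 3 fell, and Trap1, the mitochondrial HSP90, was among the falls (−0.1, adjusted p = 0.0245). Mitochondrial proteases and stress factors rose in 6 of 11 cases and fell in 2, led by the transcription factors Atf5 (log2 fold change 2.15, limma adjusted p = 4.72e-11), Ddit3 (1.64, 4.23e-09) and Atf4 (1.1, 1.02e-09). Next came the proteases Lonp1 (0.78, 2.25e-08) and Afg3l2 (0.67, 3.15e-08). Of 17 folding enzymes and stress factors of the endoplasmic reticulum, 12 rose and 3 fell, where 38.2% of all genes rose and 27.6% fell. The largest rises were Sdf2l1 (1.38, limma adjusted p = 5.18e-07), which helps BiP, and the disulfide isomerase P4hb (1.05, 6.49e-10), and the largest fall was Herpud1 (−0.56, 2.22e-07). Among 14 chaperonin TRiC and prefoldin subunits, 6 rose and 3 fell. In NS-DADm hearts 4 of 80 tested genes of these lists that are no members were called (5.0%, against 2.69% of all genes), with Atf5 (0.65, limma adjusted p = 0.0179), Atf4 (0.37, 0.0341) and P4hb (0.27, 0.0326) higher and the prefoldin subunit Vbp1 lower (−0.31, 0.0455). Macrophage markers (4 of 9) and immediate early genes (3 of 11) were called higher there as well, with sums of 367.9 to 425.6 FPKM in NS-DADm and 285.1 to 319.7 in WT for macrophages. Immediate early genes summed to 220.9 to 262.0 FPKM in NS-DADm and 166.4 to 208.0 in WT.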

How the data were processed

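Total RNA of mouse hearts was measured in 12 libraries, grouped by their labels. Per the submitters' processing notes the tools were RSEM 1.2.12 and DESeq2 1.4.5, with Bowtie2 2.2.5, HISAT2 2.0.4 and, as build, GRCm38.p6. Their roles are not given. The authors deposited 1 table of FPKM values for each experiment, per the file headers, normalized separately. The authors' deposited tables also hold a signed fold change, used here as a score, and q-values of their own comparisons. Empty NS-DADm cells were taken as 0. Symbols turned into dates, numbers or repeats were left out, which kept 17043 of 17076 and 17833 of 17857 genes. In the KO experiment 3 more FPKM columns could be matched to no sample and stayed unused.

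The planned test for normalized values was used: limma 3.58.1 (R 4.3.3, trend and robust) on log2 of FPKM plus a pseudocount of 1. A gene was kept if 3 or more of the compared libraries reached 1 FPKM. P-values were adjusted by Benjamini-Hochberg over all genes, with a threshold of 0.05. This scale understates changes of low genes. The fit was tested on simulated data. FPKM holds no counts. Depth was estimated from low values, of which 72.8% to 81.0% lay within 0.15 of a whole fragment, against 41.2% to 47.7% in values without steps, so no count test was run. Replicates of KO differed by a chi-square per degree of freedom of 1.1 to 1.28, and those of its WT by 1.44 to 1.96, where counting noise alone gives 1. Those of NS-DADm differed by 5.14 to 8.83 and those of its WT by 3.46 to 6.85. Whether the first are separate animals was not tested.

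Genes named with all values were fixed chaperones, the 8 largest called rises and falls in KO, members called in NS-DADm and the 10 largest called differences, and in the pathway lists those of largest change. Compartments, lists and members were chosen with earlier results of these data known. The sex-linked genes and the alternatives with atrial-rich libraries left out or atrial level as a covariate were added after seeing the data. Replicate numbers were not taken as pairs, as the labels do not give them as such. Alternatives covered pseudocount, filter, scaling, plain limma, the replicate block and leaving out libraries. Positions and overlaps are from GENCODE on GRCm38.p6, with 28 of the 74 members overlapping an exon of another gene, and promoters from RefSeq.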

Additional observations from a re-analysis of the deposited data

Results flagged for a closer look

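The KO effect minus the NS-DADm effect (log2, limma on all 12 libraries) passed an adjusted p of 0.05 for 30 members, which is why they are listed. Each effect is against its own WT in its own table, and in the KO experiment genotype and sex cannot be told apart. In the cytosolic HSP70 class the difference was 1.97 for Hspa1b and 1.65 for Hspa1a (both tested in KO through their KO libraries). It was 0.88 for Hspa1l, 0.24 for Hspa8, −0.63 for Hspa12a and −0.60 for Hspa12b. Among HSP110 and HSP90 genes it was 0.54 for Hspa4, −0.23 for Hspa4l and 1.27 for Hsp90aa1. For genes with an Hspb symbol it was 1.48 for Hspb1, 0.62 for Hspb8, 0.61 for Hspb11, 0.51 for Hspb2, 0.49 for Hspb7 and −0.76 for Hspb3. Cytosolic J proteins gave 0.83 for Dnajb4, 0.76 for Dnajb6, 0.35 for Dnaja2, 0.42 for Dnajc2, 0.25 for Dnajc7 and −0.88 for Dnajb5. The mitochondrial values were 0.44 for Hspa9, 0.37 for Dnaja3, 0.35 for Dnajc11, −0.32 for Dnajc28, −0.25 for Dnajc15 and −0.25 for Dnajc30. In the endoplasmic reticulum Hspa13 differed by 0.62 and Dnajc14 by 0.36. The HSPB1-binding protein gene Hspbap1, which also passed the filter through its KO libraries, differed by 0.56. The weakest of these calls were lost under some alternatives: Dnajc7 after median centring (adjusted p = 0.231), with the atrial covariate, in a plain limma fit and on leaving out any of 6 libraries (0.0604 to 0.0866: KO replicate 2 or 3, its WT replicate 1 or 3, NS-DADm replicate 2 or its WT replicate 2), and Hspa4l after scaling to a common sum (0.0925), without the atrial-rich libraries (0.23) and on leaving out any of 5 libraries (0.0548 to 0.0649: KO replicate 1 or 2, its WT replicate 1, NS-DADm replicate 3 or its WT replicate 3). Median centring ended the call of Hspa8 (0.149), and leaving out KO replicate 1 that of Hspbap1 (0.056).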

How the results depend on the processing

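In KO hearts the count of 29 higher members ranged from 22 to 30 and that of 17 lower ones from 12 to 22 over all alternatives run, and over those that left out 1 library from 25 to 28 and 17 to 18. In NS-DADm hearts the 1 higher call became 0 without a filter on low values, in a plain limma fit, with the replicate block, with the atrial covariate and (0 to 0) on leaving out any library. Without the atrial-rich libraries the 1 higher call was Dnajb4 in place of Hspa1l. The 1 lower call became 0 without a filter and in a plain limma fit, and was 0 to 1 on leaving out libraries. For the difference, 8 lower calls became 16 after median centring, 5 after scaling to a common sum and 13 with the atrial covariate, and were 6 to 10 on leaving out libraries; the 22 higher calls were 20 to 25. The replicate block gave 29 higher and 18 lower in KO, 0 and 1 in NS-DADm, and 23 and 11 for the difference, where Hspa5 (adjusted p = 0.00162), Hsp90b1 (0.0146), Hspd1 (0.0334), Dnajc19 (0.0233) and Dnajc8 (0.0412) were gained and Hspa4l (0.0536) was lost. It also ended the NS-DADm call of Hspa1l (0.0523) and gained Hspa5 in KO (0.0486). Same-numbered libraries correlated at −0.0559, −0.0247 and 0.00204 in the KO and at 0.00662, 0.376 and 0.435 in the NS-DADm experiment. There, libraries of different numbers correlated at −0.446 to 0.195. These values do not settle whether the NS-DADm libraries were paired. The labels give no pairs, so none were assumed. Among 33 named members with 99 results and 1613 alternative fits, 34 calls were lost, 39 gained and none turned sign; 47 values uncalled in both fits changed sign (lowest adjusted p 0.168). Where not stated, the cause was not tested. With any 1 of the 3 KO libraries left out Hspa1b was below the filter in KO and was not tested. Depth of 8650000 to 12950000 fragments limits members under 1 FPKM.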
